A study of Mus musculus with 8 samples.

Results

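The 10 genes described here carry fatty acids into and through the liver cell: the membrane transporter Cd36, the fatty acid transport proteins Slc27a1, Slc27a2 and Slc27a4, the lipase Lpl, the lipoprotein receptor Vldlr and the fatty acid binding proteins Fabp1, Fabp2, Fabp4 and Fabp5. They were chosen by gene symbol and all 10 were found among the 55487 genes of the table. Liver RNA had been sequenced in 8 libraries from wild-type male C57BL/6N mice. There was 1 library of western diet + CCl4 (WD+CCl4), 2 of western diet + oil (WD+oil), 2 of normal diet + CCl4 (ND+CCl4) and 3 of normal diet + oil (ND+oil). The western diet was a high-fat diet with 18.9 g/L glucose plus 23.1 g/L fructose in the water, and the normal diet was standard chow with tap water. CCl4, carbon tetrachloride, is a solvent that hepatocytes turn into a toxic radical. It, or the corn oil in which it is given, was injected into the peritoneal cavity weekly. The CCl4 dose, the feeding time and the age of the mice are not given in the sources used here. Nothing in the labels says that libraries of a group came from separate animals, so the p-values below set each difference against a spread that may be technical.

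Long-chain fatty acids reach the liver bound to albumin or inside lipoproteins. Lipases such as Lpl release them from triglyceride, and Cd36 and the Slc27a proteins help them across the plasma membrane. Slc27a proteins also couple them to coenzyme A, and the small Fabp proteins hold them in the cytosol. Fabp1 is the binding protein of hepatocytes, Fabp2 that of the intestine, Fabp4 that of adipocytes and macrophages, and Fabp5 is found in skin, macrophages and other cells. Adult hepatocytes make little Lpl or Cd36, and in mice both are known targets of nuclear receptors that bind fatty acids or sterols.

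The libraries behaved as liver. Albumin and 5 other hepatocyte genes together held 27958 to 53494 FPKM per library (fragments scaled by transcript length and by the mapped fragments of the library). The deposited FPKM summed to 514832 to 612747 per library, and depth is unknown because no read counts were analysed here. The 10 genes together held 1.08% to 2.16% of that sum. The Mup family of urinary proteins held 2.80% to 10.04% of the sum in the 5 libraries of the other groups and 16.9% to 32.5% in ND+oil libraries. FPKM is relative to the whole library, and the median change of all 11514 tested genes against ND+oil was 0.19 on the log2 scale for WD+CCl4, 0.22 for WD+oil and 0.26 for ND+CCl4. Rescaling by median of ratios brought these medians to 0.0048, -0.0020 and 0.00029, and changes under that scaling are given beside the deposited one where they bear on a call.

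The start regions of 3 genes are shown because of their values: Cd36 and Fabp2 rose in WD+oil against ND+oil, and Fabp1, the most abundant of the 10 in every library, did not pass in any comparison. The sequences run from 250 bases before to 50 bases after the RefSeq start and are RefSeq's, build GRCm38.p6. By symbol, 7 of the 10 genes matched that table (not Fabp4, Fabp5 or Lpl). Capitals mark matches to AGGTCA (the hexamer that nuclear receptors bind), to its direct repeat AGGTCANAGGTCA with up to 2 mismatches (the form bound by PPAR with RXR), to TATAAA and to CCAAT, each searched on both strands.
Cd36, chr5:17835847-17836146, minus strand: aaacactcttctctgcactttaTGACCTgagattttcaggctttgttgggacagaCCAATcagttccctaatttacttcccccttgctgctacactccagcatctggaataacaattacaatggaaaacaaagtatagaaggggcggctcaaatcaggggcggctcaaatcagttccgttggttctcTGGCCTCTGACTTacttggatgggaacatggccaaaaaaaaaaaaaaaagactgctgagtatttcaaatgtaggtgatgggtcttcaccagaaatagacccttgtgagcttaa
Fabp2, chr3:122894822-122895121, plus strand: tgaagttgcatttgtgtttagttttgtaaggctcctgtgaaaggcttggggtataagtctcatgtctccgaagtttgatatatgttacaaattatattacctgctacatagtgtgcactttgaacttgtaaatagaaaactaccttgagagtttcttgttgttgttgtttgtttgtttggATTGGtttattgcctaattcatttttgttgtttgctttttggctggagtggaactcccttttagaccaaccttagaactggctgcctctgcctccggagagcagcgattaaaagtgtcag
Fabp1, chr6:71199629-71199928, plus strand: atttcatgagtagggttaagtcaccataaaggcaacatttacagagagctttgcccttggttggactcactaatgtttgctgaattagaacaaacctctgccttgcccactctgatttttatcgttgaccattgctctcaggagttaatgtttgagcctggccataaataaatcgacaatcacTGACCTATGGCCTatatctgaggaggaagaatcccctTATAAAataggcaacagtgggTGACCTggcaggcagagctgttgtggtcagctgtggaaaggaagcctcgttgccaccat

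The Cd36 window held a reversed AGGTCA whose first base lay at -228 from the start, a CCAAT at -195 and a reversed direct repeat with 2 mismatches at -63. The window is that of a start inside the gene, which spans positions 17781690 to 17888801 of chromosome 5 in GENCODE M21. The Fabp1 window held a reversed direct repeat with 1 mismatch at -67, which contains a reversed AGGTCA, another reversed AGGTCA at -9 and a TATAAA at -30. The Fabp2 window held a reversed CCAAT at -70 and no match to the other 3 motifs. Of 32851 promoters of the same length, 16.3% held the hexamer, 3.86% the repeat, 13.6% TATAAA and 37.4% CCAAT. These are matches of letters, not sites shown to be bound.

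Fabp1 was by far the most abundant of the 10 genes, and it did not pass in any comparison. It had 6061 FPKM in the WD+CCl4 library, 8659 and 9986 in WD+oil, 6124 and 7138 in ND+CCl4, and 12581, 9360 and 6354 in ND+oil. The ND+oil libraries covered nearly the whole range of the others, and by its mean of 8283 FPKM over all libraries it ranked 6 among all genes. Slc27a2, a very long-chain acyl-CoA synthetase and transporter of hepatocytes, came next in level at 320 FPKM in WD+CCl4, 283 and 263 in WD+oil, 286 and 320.0 in ND+CCl4, and 226, 219.5 and 199.8 in ND+oil. All 5 libraries of the other groups lay above the 3 ND+oil libraries for this gene in the deposited scaling. Its log2 changes against ND+oil were 0.57 (WD+CCl4), 0.34 (WD+oil) and 0.49 (ND+CCl4). Under median-of-ratios scaling they shrank to 0.34, 0.07 and 0.16, and none passed in either scaling. The share of all tested genes separated in this way was not computed. Means over the 8 libraries then descended from Fabp2 (68.6 FPKM) and Fabp5 (50.2) through Fabp4 (19.7), Cd36 (18.5), Lpl (13.3) and Slc27a4 (6.12) to Slc27a1 (1.49) and Vldlr (0.112). From Fabp2 to Slc27a4 the range over libraries of each gene overlapped that of the next, so their order is not beyond their spread, while Fabp1, Slc27a2, Slc27a1 and Vldlr did not overlap their neighbours.

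**Figure D1:**
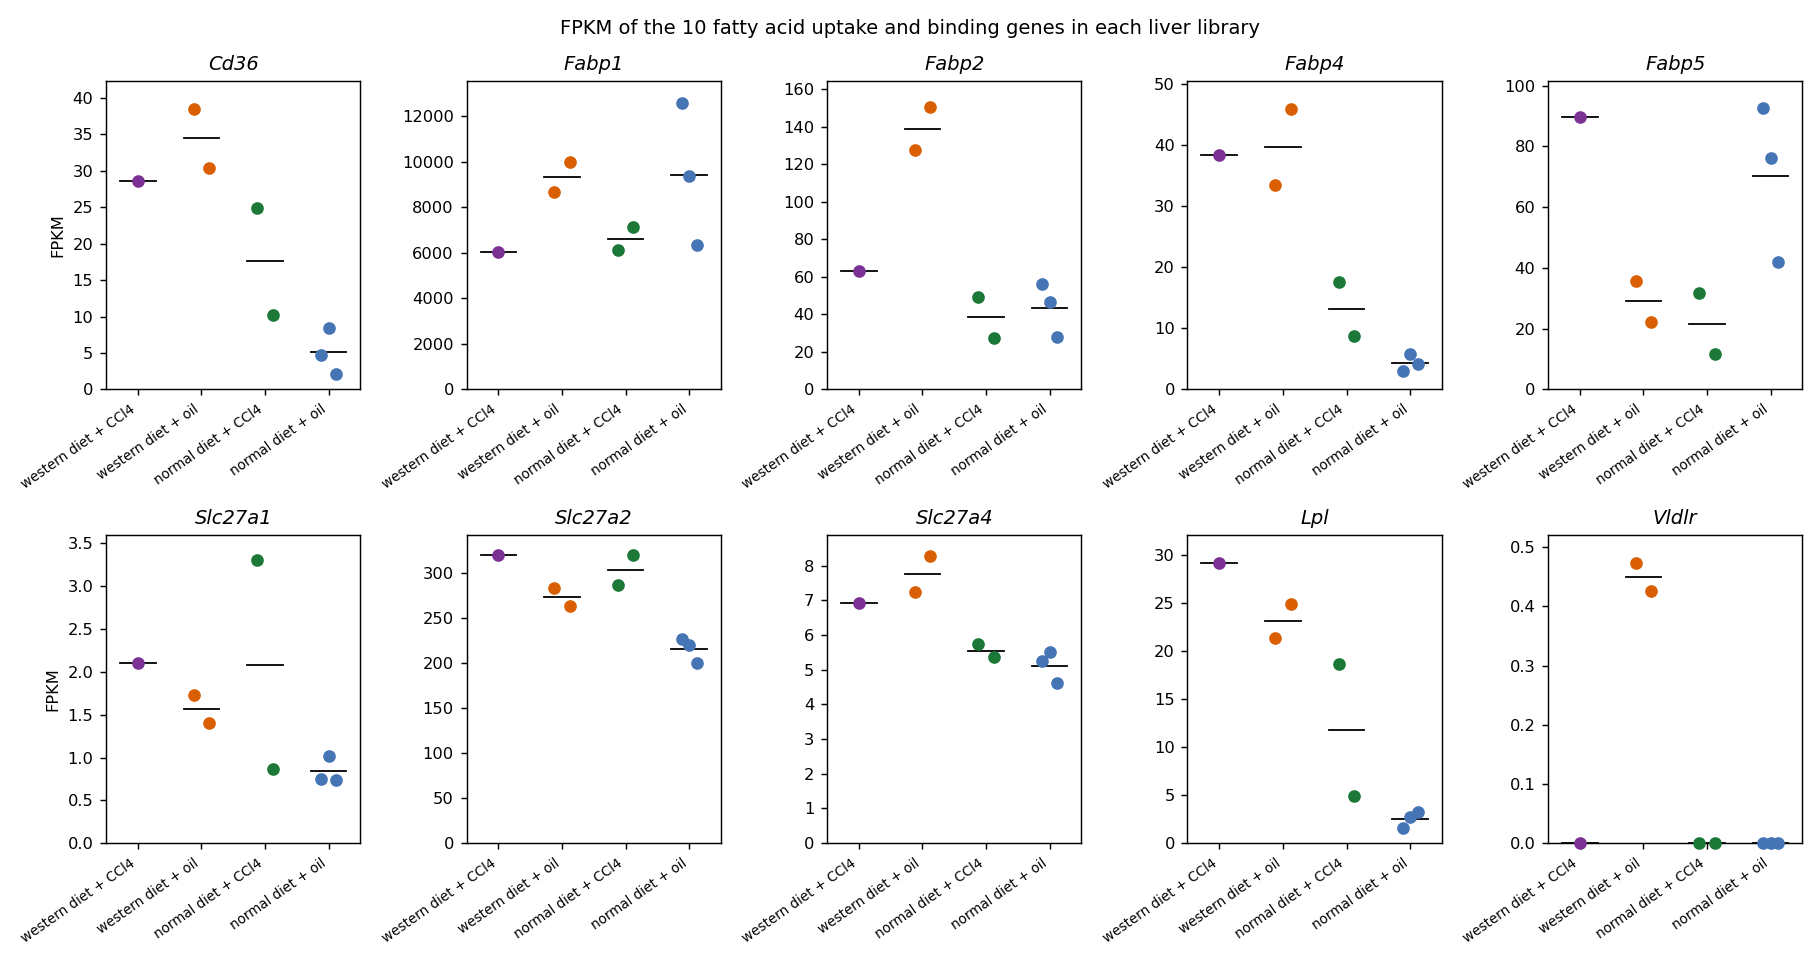
FPKM of each of the 10 genes (y axis, linear from 0, own scale per gene) in the 4 groups (x axis); points are libraries and lines are group means, a lone point being the 1 WD+CCl4 library. Cd36, Fabp4 and Lpl stand lowest in all 3 ND+oil libraries, Fabp2 stands highest in both WD+oil libraries, and Vldlr is above 0 only there.

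The comparison of WD+oil with ND+oil asks what the diet alone did. Fabp4, Lpl, Cd36 and Fabp2 rose, by 3.18-fold (Fabp2) to 9.23-fold (Lpl) in mean FPKM, and none of the 9 tested genes fell. Thus 4 of 9 passed (limma, Benjamini-Hochberg adjusted p below 0.05 over all tested genes), where 4.41% of all tested genes passed in either direction and 3.81% rose. The median log2 change of the 9 genes was 0.52, against 0.22 for all tested genes. Vldlr did not reach the filter of 1 FPKM in 2 libraries and was not tested. In bulk liver, more cells of a type and more RNA per cell cannot be told apart.

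Fabp4, the adipocyte and macrophage binding protein, had 33.5 and 46.0 FPKM in WD+oil, against 3.09, 5.79 and 4.15 in ND+oil. The lowest WD+oil library thus stood well above the highest ND+oil library. Its log2 change was 2.95 ± 0.32 (SE; adjusted p = 0.0113), and 22 of the 11514 tested genes had a larger one. Lpl, the lipase that clears triglyceride from lipoproteins, had 21.4 and 24.9 FPKM in WD+oil, against 1.53, 2.69 and 3.29 in ND+oil, a log2 change of 2.81 ± 0.46 (adjusted p = 0.0246). Its groups also lay far apart. Cd36, the membrane transporter and scavenger receptor, had 38.5 and 30.4 FPKM in WD+oil, against 4.76, 8.42 and 2.08 in ND+oil. The ND+oil libraries differed more from each other than the WD+oil libraries did, and the log2 change was 2.67 ± 0.49 (adjusted p = 0.0294). Fabp2, which adult mouse gut makes in quantity, had 127 and 150 FPKM in WD+oil, against 56.4, 46.6 and 28.1 in ND+oil, a log2 change of 1.70 ± 0.34 (adjusted p = 0.0381).

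Under median-of-ratios scaling the changes were 2.71 for Fabp4, 2.595 for Lpl, 2.44 for Cd36 and 1.43 for Fabp2, and Fabp2 no longer passed (adjusted p = 0.0596). The calls also rest on single libraries: 0 of the 9 genes passed without WD+oil library 1 or without library 2, 1 (Fabp4) without ND+oil library 1 or without library 3, and 2 (Cd36 and Fabp4) without ND+oil library 2. With no filter Cd36, Lpl and Fabp2 were lost as well, while all 4 log2 changes stayed between 1.42 and 3.22 in the 13 alternatives.

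The other 5 tested genes did not pass. Slc27a4, a widely expressed fatty acid transport protein, had 7.24 and 8.29 FPKM in WD+oil, against 5.24, 5.51 and 4.61 in ND+oil; its groups did not overlap, and its log2 change was 0.52 ± 0.15 (adjusted p = 0.0881). Fabp5 was the only one of the 9 with a log2 change below 0 in the deposited scaling. It had 35.7 and 22.3 FPKM in WD+oil, against 92.6, 76.2 and 41.8 in ND+oil, a log2 change of -1.21 ± 0.47 (adjusted p = 0.175). For Slc27a2 the log2 change was 0.34 ± 0.18 (adjusted p = 0.293) and for Slc27a1, the insulin-responsive transporter of muscle and fat, 0.48 ± 0.32 (adjusted p = 0.411). Slc27a1 was low everywhere, with 1.73 and 1.40 FPKM in WD+oil, against 0.755, 1.02 and 0.739 in ND+oil. The Fabp1 change was 0.03 ± 0.30 (95% interval -0.66 to 0.73; adjusted p = 0.960) and turned to -0.24 under median-of-ratios scaling, so a change within that interval cannot be told from 0. Groups did not overlap for 8 of the 9 genes, 7 of them higher in WD+oil, where 45.9% of all tested genes did not overlap and 40.7% were higher without overlap. Vldlr, which takes up triglyceride-rich lipoproteins, had 0.473 and 0.425 FPKM in WD+oil and was listed at 0 in each of the 6 other libraries.

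The comparison of ND+CCl4 with ND+oil asks what the toxin did on the normal diet. None of the 9 tested genes passed, where 1.42% of all tested genes did; at an unadjusted limma p below 0.05 there were 5 (Fabp4, Fabp5, Lpl, Cd36 and Slc27a2), where 22.8% of all tested genes lay below that value. Fabp4 had 17.7 and 8.76 FPKM in ND+CCl4, against 3.09, 5.79 and 4.15 in ND+oil, with a log2 change of 1.37 ± 0.32 (adjusted p = 0.0936). Both ND+CCl4 libraries lay above the ND+oil range, but by very different distances. Lpl had 18.7 and 4.93 FPKM in ND+CCl4, against 1.53, 2.69 and 3.29 in ND+oil (log2 change 1.66 ± 0.46, adjusted p = 0.122). Cd36 had 24.9 and 10.3 FPKM in ND+CCl4, against 4.76, 8.42 and 2.08 in ND+oil (log2 change 1.63 ± 0.49, adjusted p = 0.133). Fabp5 went the other way, with 31.7 and 11.5 FPKM in ND+CCl4, against 92.6, 76.2 and 41.8 in ND+oil (log2 change -1.74 ± 0.47, adjusted p = 0.115). Its groups did not overlap, which held for 5 of the 9 genes and for 5248 of all 11514 tested genes.

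The remaining genes had smaller log2 changes in this comparison, although Slc27a1, low in level, had 2.49 times the mean FPKM of ND+oil. Slc27a2 had a log2 change of 0.49 ± 0.18 (adjusted p = 0.175) and Slc27a1 of 0.63 ± 0.32 (adjusted p = 0.269). For Fabp1 it was -0.46 ± 0.30, for Fabp2 -0.19 ± 0.34 and for Slc27a4 0.10 ± 0.15, the last turning to -0.18 under median-of-ratios scaling. Fabp2 thus stood at 49.5 and 27.3 FPKM in ND+CCl4, within the ND+oil range of 28.1 to 56.4 but for the lower library.

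The ND+CCl4 libraries differed from each other. Of the 9 tested genes, 7 were higher in library 1 than in library 2, led by Slc27a1 (3.81 times), Lpl (3.79 times), Fabp5 (2.75 times), Cd36 (2.43 times) and Fabp4 (2.02 times), while Fabp1 and Slc27a2 were slightly lower. Slc27a1 had 3.30 FPKM in library 1, the highest of all 8 libraries, and 0.867 in library 2, inside the ND+oil range. Without library 2, 3 genes passed against ND+oil (Fabp4, Lpl and Slc27a1, with log2 changes of 1.84, 2.52 and 1.23), in a fit where 1165 of all tested genes passed, against 164 with both libraries, and where the lone ND+CCl4 library is taken to vary like the other groups. Without library 1 none of the 9 passed. The WD+oil libraries were more alike: 4 of the 9 genes were higher in library 1, and the largest ratio of library 1 over library 2 was 1.60 (Fabp5).

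**Figure D2:**
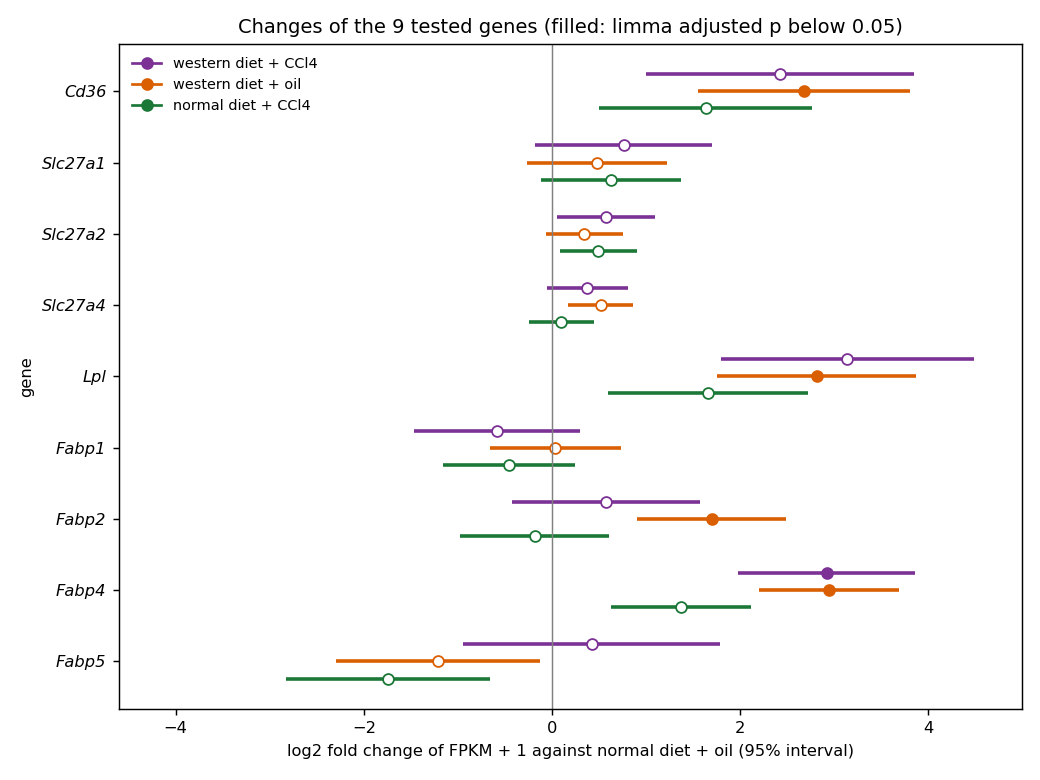
Log2 change of FPKM + 1 against ND+oil (x axis) for each of the 9 tested genes (y axis) in WD+CCl4, WD+oil and ND+CCl4; points are limma estimates, lines their 95% intervals, and filled points passed. Fabp4 passed in both western diet groups, Lpl, Cd36 and Fabp2 in WD+oil, and no gene in ND+CCl4; all 3 comparisons share the 3 ND+oil libraries.

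The WD+CCl4 group had 1 library, which was taken to vary like the others. Against ND+oil, 1 of the 9 tested genes passed, Fabp4, where 0.929% of all tested genes did. Fabp4 had 38.5 FPKM in WD+CCl4, against 3.09, 5.79 and 4.15 in ND+oil (log2 change 2.92 ± 0.41, adjusted p = 0.0265). Lpl had 29.2 FPKM there, the highest of the 8 libraries, and did not pass (log2 change 3.14 ± 0.58, adjusted p = 0.0585). Cd36 had 28.6 FPKM, a log2 change of 2.42 ± 0.62 (adjusted p = 0.132). Fabp2 stood at 62.9 FPKM, just above the ND+oil libraries, and Fabp5 at 89.5, inside their range. The other 4 genes had log2 changes of -0.58 (Fabp1) to 0.76 (Slc27a1) and did not pass. The Fabp4 call was lost without WD+oil library 1 or 2, without ND+oil library 1 or 3 and with no filter (0 genes passing in each), and Lpl passed beside it without either ND+CCl4 library (2 genes). All 3 comparisons against ND+oil share the same 3 control libraries, so their values are set side by side and not counted as separate support.

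Among the 3 treated groups none of the 9 tested genes passed. For WD+CCl4 against WD+oil, 0.0434% of all tested genes passed; 2 of the 9 genes had an unadjusted p below 0.05, where 4.19% of all tested genes did, Fabp5 (89.5 FPKM in WD+CCl4, against 35.7 and 22.3 in WD+oil) and Fabp2 (62.9 FPKM in WD+CCl4, against 127 and 150 in WD+oil). Fabp4 was alike in level, at 38.5 FPKM in WD+CCl4, against 33.5 and 46.0 in WD+oil, though the 95% interval of its log2 change ran from -1.03 to 0.97. For WD+CCl4 against ND+CCl4, where 0.261% of all tested genes passed, 3 genes had an unadjusted p below 0.05 (7.1% of all tested genes): Fabp4, Fabp5 and Lpl, with log2 changes of 1.55 ± 0.43, 2.16 ± 0.63 and 1.48 ± 0.62. For WD+oil against ND+CCl4, where 0.617% passed and 11.1% had an unadjusted p below 0.05, the 3 genes below that value were Fabp2 (log2 change 1.88 ± 0.38, adjusted p = 0.0822), Fabp4 (1.58 ± 0.35) and Slc27a4 (0.42 ± 0.16). Fabp2 was 127 and 150 FPKM in WD+oil, against 49.5 and 27.3 in ND+CCl4, and it passed only without ND+oil library 3.

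The interaction asks whether the diet difference itself differed with CCl4, as the WD+CCl4 minus ND+CCl4 difference less the WD+oil minus ND+oil difference. None of the 9 tested genes passed, where 0.0608% of all tested genes did, and 2 (Fabp5 and Fabp4) had an unadjusted p below 0.05, where 9.78% of all tested genes did. Fabp5 had the largest value of the 9 at 3.37 ± 0.78 (adjusted p = 0.278), with less Fabp5 on the western diet among oil libraries and more among CCl4 libraries. For Fabp4 the term was -1.40 ± 0.54 (adjusted p = 0.496) and for Cd36 -1.88 ± 0.82 (adjusted p = 0.510). Each of these terms rests on the 1 WD+CCl4 library.

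The mix of binding proteins other than Fabp1 differed between the groups. Fabp1 made up 96.9% to 99.3% of the FPKM summed over the 4 Fabp genes in every library. Of what was left, Fabp5 held 46.9% in WD+CCl4, 18.2% and 10.2% in WD+oil, 32.1% and 24.2% in ND+CCl4, and 60.9%, 59.3% and 56.5% in ND+oil. Fabp5 was thus the main one of the 3 minor forms in every ND+oil library and in the WD+CCl4 library, where Fabp2 held 32.9%. Fabp2 was the main one in both WD+oil libraries (64.8% and 68.8%) and both ND+CCl4 libraries (50.1% and 57.4%). Fabp4 held 20.2% in WD+CCl4, 17.1% and 21.0% in WD+oil, 17.9% and 18.4% in ND+CCl4, and 2.03%, 4.50% and 5.61% in ND+oil. Shares of Fabp4 in the 5 treated libraries lay close together and apart from ND+oil, although its level in them ran from 8.76 to 46.0 FPKM. These shares come from the same values as the tests above and are a description.

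Fabp4 and Fabp5 are neighbours on chromosome 3 (GRCm38, GENCODE M21). Fabp5 spans 10012548 to 10016607 on the plus strand and Fabp4 10204088 to 10208576 on the minus strand, with 187480 bases between their facing ends. Their relatives Pmp2 and Fabp9 and the gene Gm37389 lie between them and were listed at 0 in every library. In WD+oil against ND+oil, Fabp4 rose by 2.95 ± 0.32 on the log2 scale, and the value of Fabp5, which did not pass, was -1.21 ± 0.47. Fabp2 lies elsewhere on that chromosome (122895072 to 122899506, plus strand), overlapped on the other strand by 4933405D12Rik, which was listed at 0. Slc27a2 on chromosome 2 is likewise overlapped by Gm26697, at no more than 0.281 FPKM.

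Markers of other cells were measured because several of these genes are not mainly hepatocyte genes. The 12 markers of Kupffer cells and macrophages summed to 613 FPKM in WD+CCl4, 705 and 1409 in WD+oil, 603 and 203 in ND+CCl4, and 94.6, 186 and 181 in ND+oil. Of the 12, 10 rose and none fell in WD+oil against ND+oil, with a median log2 change of 2.55; their most abundant genes were C1qa (116 and 251 FPKM in WD+oil, against 21.0, 29.1 and 30.4 in ND+oil), C1qb (log2 change 2.76 ± 0.50, adjusted p = 0.0285) and Lyz2 (2.76 ± 0.72, adjusted p = 0.0722, not passed). The count of 10 was 0 without WD+oil library 1 or 2 and with no filter, 1 without ND+oil library 1 or 2, and 5 without ND+oil library 3. The marker sum and the levels of Fabp4, Lpl and Cd36 were all lowest in the 3 ND+oil libraries, then in ND+CCl4 library 2. In the libraries above them the orders differed in part: WD+oil library 2 had a higher marker sum than WD+oil library 1 (1409 against 705 FPKM), with more Fabp4 (46.0 against 33.5 FPKM) and Lpl (24.9 against 21.4) but less Cd36 (30.4 against 38.5). The part of macrophages in the rise of Fabp4, Lpl and Cd36 was not tested.

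**Figure D3:**
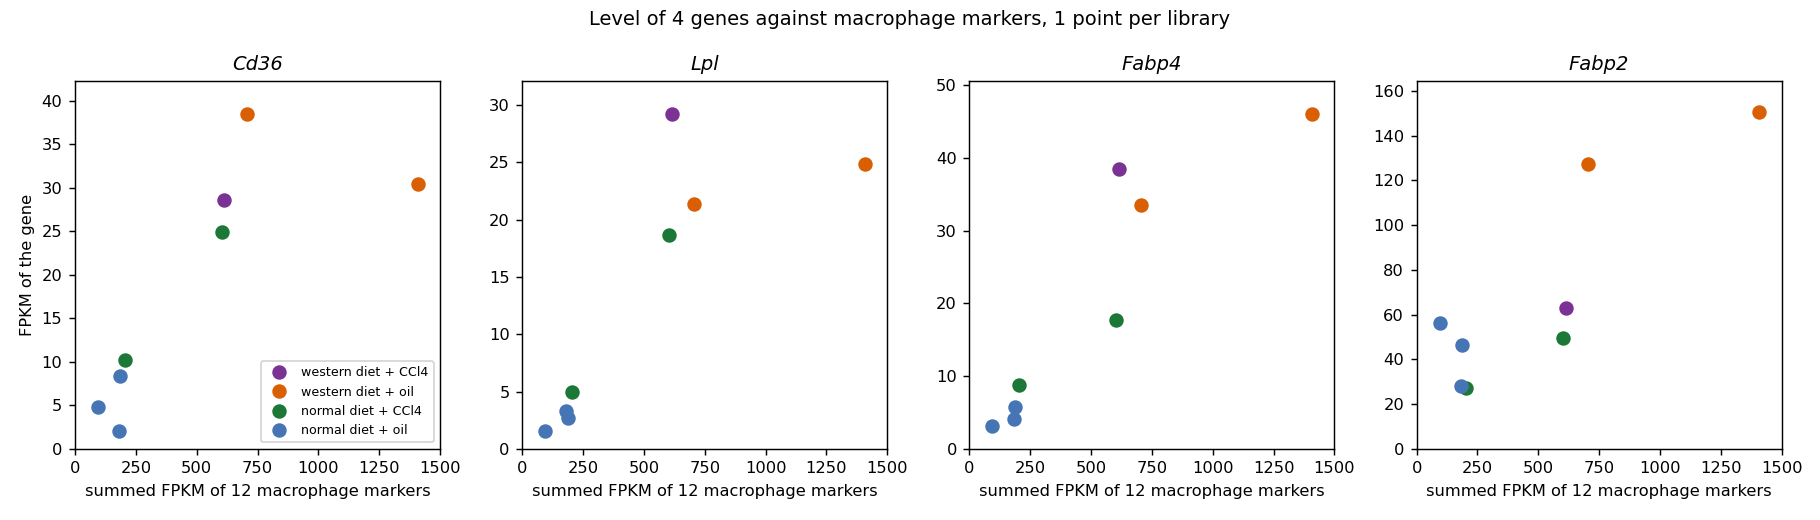
FPKM of Cd36, Lpl, Fabp4 and Fabp2 (y axes, linear from 0) against the summed FPKM of 12 macrophage markers (x axis), 1 point per library. Cd36, Lpl and Fabp4 are low in the 4 libraries with sums of 203 or less and higher in the 4 with sums of 603 or more, while Fabp2 is no higher in ND+CCl4 library 1 (49.5 FPKM, sum 603) than in ND+oil library 1 (56.4 FPKM, sum 94.6).

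Lipid-associated macrophage markers, 8 in number, summed to 274 FPKM in WD+CCl4, 113 and 160 in WD+oil, 581 and 51.1 in ND+CCl4, and 33.0, 57.6 and 27.8 in ND+oil. The single gene Spp1 made up the larger part of this sum in every library. It had 170 FPKM in WD+CCl4, 58.4 and 94.8 in WD+oil, 455 and 26.8 in ND+CCl4, and 19.2, 39.1 and 17.3 in ND+oil. Of the 8 markers 1, the lysosomal tetraspanin Cd63, rose in each comparison with ND+oil. In WD+oil the Cd63 call was lost with no filter or without any 1 of the WD+oil or ND+oil libraries. In ND+CCl4 it was lost under either rescaling, with no filter, without ND+CCl4 library 1 or without any 1 of the WD+oil or ND+oil libraries. In WD+CCl4 it was lost with a pseudocount of 0.1, with no filter or without any 1 of the WD+oil or ND+oil libraries. More of this list passed in some fits without an ND+CCl4 library, but calls over all tested genes also changed strongly with the library left out. Of the markers of adipocytes, a chief source of Fabp4 and Lpl elsewhere in the body, Adipoq, Plin1, Lep and Retn were listed at 0 in every library, and the fifth, Adrb3, lay between 0.781 and 3.13 FPKM. All 6 skeletal muscle markers were listed at 0 in every library. So were 4 of 5 enterocyte markers (Vil1, Sis, Lct and Alpi), while the fifth, Cdhr5, was expressed in each, with 34.0 FPKM in WD+CCl4, 19.1 and 27.7 in WD+oil, 22.0 and 32.6 in ND+CCl4, and 15.7 to 19.5 in ND+oil. Endothelial markers, 10 in number, summed to 51.2 FPKM in WD+CCl4, 74.3 and 78.3 in WD+oil, 87.7 and 57.6 in ND+CCl4, and 33.3, 37.4 and 45.4 in ND+oil, with 4 rising in WD+oil, but 0 under either rescaling, with no filter, without either WD+oil library or without ND+oil library 1 or 2, and 1 without ND+oil library 3. Stellate cell markers, 6 in number, summed to 78.9 FPKM in WD+CCl4, 104 and 116 in WD+oil, 116 and 55.4 in ND+CCl4, and 38.2, 38.1 and 33.7 in ND+oil. In WD+oil 2 of them rose, but 1 under either rescaling, with no filter or without ND+oil library 1 or 3. Both calls were lost without either WD+oil library or without ND+oil library 2. More stellate markers passed without either ND+CCl4 library, with the same limit on calls over all tested genes. The part of these cells was not tested.

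The genes whose profile over the 8 libraries was most like that of each gene were found by the root mean square difference of centred log2 values. For Fabp4 they were Tmem86a (0.27), which encodes a lysoplasmalogenase, and Fcer1g (0.28), the common gamma chain of Fc receptors on myeloid cells. For Lpl they were the same genes, Fcer1g (0.29) and Tmem86a (0.29). Cd36 was nearest to Plac8 and to the galectin Lgals1 (0.40 each), and Fabp2 to the immediate early gene Fos (0.17) and to Plin4, a lipid droplet coat protein (0.23). Fos was low in level, with 3.07 and 4.07 FPKM in WD+oil, against 1.32, 0.674 and 0 in ND+oil, so its profile depends on the added 1 FPKM. Plin4 had 9.45 and 9.38 FPKM in WD+oil, against 2.55, 1.56 and 0.767 in ND+oil. Fabp5 had no close match: its nearest gene, the crystallin Crybb3, differed by 0.47, and Dnajc12 by 0.59. These are descriptions over 8 libraries that share their groups.

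The partners of these genes mostly did not pass. Among lipases and the proteins that control Lpl, 2 of 12 rose in WD+oil against ND+oil and none fell. Gpihbp1, the endothelial protein that anchors Lpl on the capillary wall, had 17.9 and 27.3 FPKM in WD+oil, against 7.97, 7.79 and 7.48 in ND+oil (log2 change 1.40 ± 0.24, adjusted p = 0.0258). The 3 ND+oil libraries were nearly equal. Apoc2, the apolipoprotein that activates Lpl, had 140 and 618 FPKM in WD+oil, against 15.9, 45.2 and 35.7 in ND+oil (log2 change 3.27 ± 0.70, adjusted p = 0.0454). This call is uncertain, because Gm44805 overlaps Apoc2 on the same strand and fragments could be split between them. Their sum was 748 and 1063 FPKM in WD+oil, against 278, 237 and 191 in ND+oil, groups that also lay apart. Gpihbp1 alone passed with a pseudocount of 0.1 or after either rescaling. Both calls were lost with no filter, without a WD+oil library or without an ND+oil library.

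Among other binding proteins, 0 of 7 tested passed in WD+oil against ND+oil, 1 at an unadjusted limma p below 0.05, where 23.3% of all tested genes lay below that value (Fabp7, named for that value, with 6.33 and 10.07 FPKM in WD+oil, against 0.727, 1.73 and 1.91 in ND+oil, adjusted p = 0.0681). Among other transporters and acyl-CoA synthetases it was 0 of 8, 1 unadjusted (Mfsd2a, a lysophospholipid carrier), and among other lipoprotein receptors 0 of 7, 1 unadjusted (the HDL receptor Scarb1). Among 17 transcription factors that govern such genes 0 passed and 7 did unadjusted; the nearest was Pparg, the adipogenic PPAR, with 10.10 and 8.53 FPKM in WD+oil, against 4.46, 5.26 and 2.25 in ND+oil (log2 change 1.10 ± 0.27, adjusted p = 0.0636). Median log2 changes of these lists were 0.25, 0.24, 0.10 and 0.42, and that of the lipase list 0.21, beside 0.22 for all tested genes. No gene of these 5 lists passed against ND+oil in ND+CCl4 or in WD+CCl4. At an unadjusted p below 0.05 there were 6 in WD+CCl4, where 15.3% of all tested genes lay below that value, and 5 in ND+CCl4 (Acbd3, Acsl4, Apoc2, Apoa5 and Nfe2l2), where 22.8% did.

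**Figure D4:**
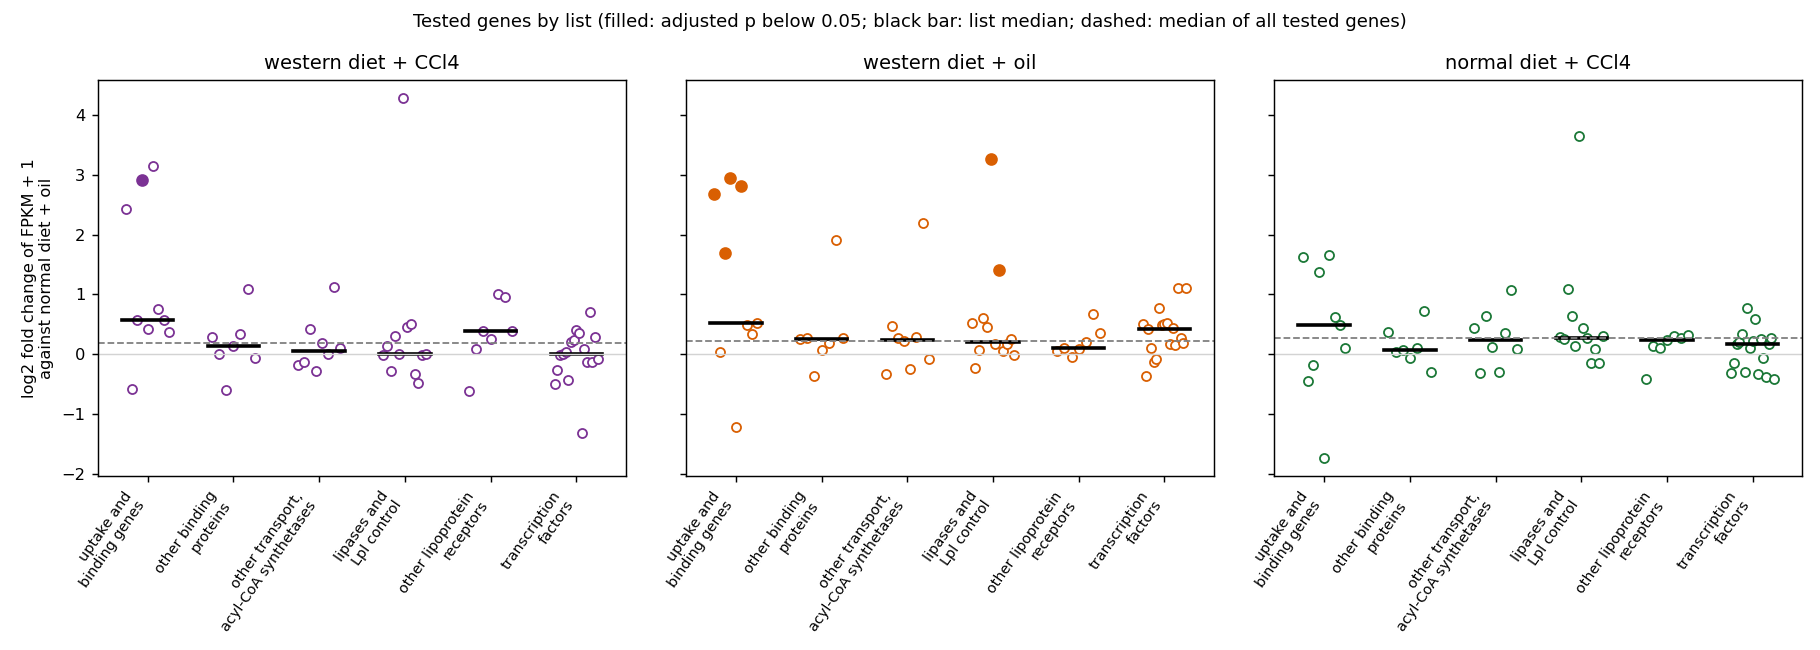
Log2 change of FPKM + 1 against ND+oil (y axis) for tested genes of 6 lists (x axis) in WD+CCl4, WD+oil and ND+CCl4; points are genes, filled where the adjusted p was below 0.05, black bars are list medians and the dashed line is the median of all tested genes. In WD+oil 4 uptake and binding genes and 2 genes of the lipase list are filled, in WD+CCl4 Fabp4 alone, and in ND+CCl4 none.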

How the data were processed

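RNA-seq of liver was analysed from 1 table with 8 libraries. The authors deposited FPKM per gene and library. The submitters' processing notes list HISAT2 2.2.1, StringTie 2.1.0, cutadapt 3.7, FastQC 0.11.9 and build GRCm38, without saying what each did. The mRNA libraries were stranded, per the labels' protocols. In no pair of libraries (28 pairs) was a value above 0 identical, and all columns belonged to samples of this series. Genes with at least 1 FPKM in at least 2 libraries (11514 of 55487) were tested on log2(FPKM + 1) in R 4.3.3, using lmFit, contrasts.fit and trended eBayes of limma 3.58.1, all 4 groups in 1 fit with 4 residual degrees of freedom and 7 contrasts, two-sided, adjusted by the Benjamini-Hochberg method over all tested genes within a contrast. Fold changes on this scale understate changes of low genes. The script was tested on simulated data. Intervals hold at the 95% level. FPKM give no counts, so no counting error was computed.

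The 10 genes and the lists of pathway genes and markers were chosen with earlier results of these data known. Named were all 10 genes, of each pathway list the genes that passed (up to 5 by p), of each marker list up to 3 abundant genes, and for each tested gene the 2 nearest profiles, without predicted genes, clones and Mup genes; Fabp7, Pparg and the genes named for an unadjusted p or for standing at 0 were chosen after their values were seen. The hepatocyte marker Tf was not analysed here. The values of 1 gene of the receptor list are not reported here. Coordinates came from GENCODE M21 and promoters from RefSeq. Alternatives were a pseudocount of 0.1, no filter, median-of-ratios scaling, removal of the 49 Mup genes with rescaling, the replicate number as a block, and each library left out in turn.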

Additional observations from a re-analysis of the deposited data

Results flagged for a closer look

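The CCl4 difference of Cd36 pointed in opposite directions on the diets. The western diet difference was only -0.25 ± 0.65 on the log2 scale and rests on the 1 WD+CCl4 library. On the western diet the WD+CCl4 library (28.6 FPKM) lay below both WD+oil libraries (38.5 and 30.4), while on the normal diet both ND+CCl4 libraries (24.9 and 10.3 FPKM) lay above all ND+oil libraries (4.76, 8.42 and 2.08). The interaction term was -1.88 on the log2 scale and did not pass (limma, adjusted p = 0.510).

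Fabp5 showed such a reversal for both factors, with the same interaction term of 3.37 on the log2 scale (limma, adjusted p = 0.278), which did not pass. With CCl4 it stood higher on the western diet (89.5 FPKM in WD+CCl4, against 35.7 and 22.3 in WD+oil) and lower on the normal diet (31.7 and 11.5 FPKM in ND+CCl4, against 92.6, 76.2 and 41.8 in ND+oil). By diet it stood higher with CCl4 and lower with oil. Both patterns rest on the 1 WD+CCl4 library. By diet, 7205 of 11514 tested genes did not overlap in WD+CCl4 against ND+CCl4 and 5283 in WD+oil against ND+oil. By CCl4, the comparison used for Cd36 and Fabp5, 7273 did not overlap in WD+CCl4 against WD+oil and 5248 in ND+CCl4 against ND+oil.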

How the results depend on the processing

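Of 783 recomputed log2 changes of single genes, 724 kept their direction and their side of the threshold, 30 lost and 6 gained a call, and 23 changed sign; the cause was not tested. In WD+oil against ND+oil, 4 of the 10 genes passed, against 2 with no filter (Fabp4, and Vldlr at 0.53 ± 0.06, adjusted p = 0.0409) and 0 with the replicate block; without 1 library the count ranged from 0 to 4. Across the 13 alternatives Fabp4 passed in 10, Cd36 in 7, Lpl in 6 and Fabp2 in 5, with adjusted p of 0.0039 to 0.142, 0.0141 to 0.250, 0.0039 to 0.247 and 0.0190 to 0.328. The count ranged from 0 to 3 without 1 library in ND+CCl4 against ND+oil. In WD+CCl4 against ND+oil 1 gene passed, 0 with no filter and 0 with the replicate block, and 0 to 2 without 1 library; adjusted p of Fabp4 ran from 0.0113 to 0.149. In WD+oil against ND+CCl4 it was 0 to 1 without 1 library.

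Of all tested genes, 508 passed in WD+oil against ND+oil, 121 with no filter, 283 under median-of-ratios scaling, 306 without Mup genes, 32 with the replicate block and 4 to 1159 without 1 library. In ND+CCl4 against ND+oil these counts were 164, 18, 91, 95, 49 and 22 to 1165. In WD+CCl4 against ND+oil 107 passed, 43 with a pseudocount of 0.1, 171 with no filter, 6 with the replicate block and 36 to 486 without 1 library. In WD+CCl4 against WD+oil 5 passed, 0 with that pseudocount, 69 with no filter, 8 without Mup genes, 0 with the block and 1 to 16 without 1 library. In WD+CCl4 against ND+CCl4 30 passed, 15 with that pseudocount, 109 with no filter, 11 with the block and 6 to 32 without 1 library. In WD+oil against ND+CCl4 71 passed, 6 with no filter and 1 to 122 without 1 library. For the interaction 7 passed, 3 with that pseudocount, 17 with no filter, 0 under either rescaling, 2 with the block and 0 to 168 without 1 library.

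Sign changes were all of uncalled values. Fabp1 in WD+oil against ND+oil turned to -0.24 (median of ratios), -0.11 (without Mup genes) and -0.22 (replicate block), and ran from -0.22 to 0.27 without 1 library. In ND+CCl4 against ND+oil Slc27a4 turned to -0.18 (median of ratios) and -0.025 (without Mup genes), and Fabp2 ran from -0.60 to 0.23 without 1 library, above 0 without ND+CCl4 library 2 or ND+oil library 1 (0.023). Fabp5 in WD+CCl4 against ND+oil turned to -0.30 with the replicate block. Fabp4 in WD+CCl4 against WD+oil turned to 0.011 (median of ratios) and 0.012 (replicate block), and ran from -0.25 to 0.19 without 1 library. Slc27a1 in WD+CCl4 against ND+CCl4 turned to -0.064 with the replicate block and ran from -0.47 to 0.74 without 1 library. In WD+oil against ND+CCl4 it ran from -0.75 to 0.45, and Fabp5 from -0.16 to 1.22. Of the interactions, Fabp1 turned to 0.21 (median of ratios) and 0.097 (replicate block), ranging from -0.40 to 0.097 without 1 library, Slc27a1 ranged from -0.95 to 0.255, and Slc27a2 and Slc27a4 turned to 0.11 and 0.074 (median of ratios).

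Correlations of deviations between libraries with the same number ran from -0.279 to -0.0140. In groups of 2 libraries the deviations mirror each other, so few of these values are independent, and the WD+CCl4 library was left out. Whether the numbers mark a pairing or a batch cannot be decided from them. Depth is unknown, and groups of 1 to 3 libraries limit every comparison.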

Other observations

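The 5 erythroid genes summed to 732 FPKM in WD+CCl4, 928 and 554 in WD+oil, 253 and 282 in ND+CCl4, and 230, 294 and 350 in ND+oil. Of them 3 rose in WD+oil against ND+oil (limma, adjusted p between 0.0284 and 0.0435): the globins Hbb-bs (log2 change 1.50), Hba-a1 (1.43) and Hba-a2 (1.43). Fragments may be split between the near-identical copies Hba-a1 and Hba-a2, and likewise between Hbb-bs and Hbb-bt. None of these 3 globins passed under either rescaling or without any 1 of the WD+oil or ND+oil libraries. Alas2, the heme synthesis enzyme of red cell precursors, stood the other way, at 32.1 and 28.9 FPKM in WD+oil, against 39.8, 39.3 and 39.7 in ND+oil, and did not pass (adjusted p = 0.457). None of the 5 passed in WD+CCl4 or in ND+CCl4 against ND+oil.

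The 4 genes with the narrowest ranges of log2(FPKM + 1) differed little from their nearest profiles. A narrow range by itself gives small differences, which were not scaled by range. They therefore cannot be read as closer matches than those of the other genes, and no statement on shared function is made. Slc27a1 was nearest to Hmga1 (root mean square difference 0.084 on the log2 scale) and Slc51b (0.11), Slc27a2 to D17H6S53E (0.072) and Brf2 (0.079), Slc27a4 to Mtg1 (0.061) and Dennd2d (0.063), and Fabp1 to Supt3 (0.13) and Pttg1 (0.15). Hmga1 had 13.8 and 5.99 FPKM in ND+CCl4 libraries 1 and 2, the same unequal pair as for Slc27a1. Over the 8 libraries the range of Slc27a2 was 0.68 and that of Slc27a4 0.73 on the log2 scale, against 3.68 for Cd36, 3.57 for Lpl and 3.52 for Fabp4.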
